A study of Mus musculus with 9 samples.

Results

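Immediate early genes were measured in mouse bone marrow-derived macrophages that had been given IL-27, IL-4 or no cytokine. The group described here has 10 genes, chosen by name from the 16200 genes of the count table: Fos, Jun, Junb, Jund, Egr1, Atf3, Ier2, Ier3, Btg2 and Zfp36. All 10 passed the filter on low counts, which left 12587 genes for testing. The rule that picks them uses names alone, but the names were chosen with earlier results of these data known. PolyA RNA was sequenced from 9 libraries of wild-type (WT) macrophages, cells grown from bone marrow for 6 days with L929 supernatant, a source of the growth factor M-CSF. There were 3 libraries of cells given IL-27 at 100 ng/ml for 6 h, 3 of cells given IL-4 at 20 ng/ml for 12 h, and 3 of untreated cells (labelled NC). The labels name no allele or other agent in these groups. They give both cytokines in one shared text, and whether IL-4 was also added to the IL-27 cells is not stated. Separate mice or cultures are not mentioned for the replicates, so p-values measure spread among libraries that may be technical repeats.

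Immediate early genes are transcribed soon after a cell meets a growth factor, a cytokine, a microbial product or a stress, and they need no new protein for this. ERK and p38 kinases act on factors already bound at their promoters, such as SRF with its ELK partners and CREB, and many of the resulting mRNAs carry AU-rich elements and are quickly degraded. In macrophages the group is best known from the first response to Toll-like receptor ligands, in which FOS, JUN and ATF3 shape cytokine transcription and tristetraprolin, the Zfp36 product, shortens the life of cytokine mRNAs. IL-4 signals mainly through STAT6 and IL-27 through a receptor that holds the IL6ST chain. Each cytokine was sampled at 1 time, so dose, time and cytokine cannot be told apart between the 2 treatments, and a rise that ended before sampling would not be seen.

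In IL-27 macrophages 5 of the 10 genes fell relative to untreated cells and 0 rose, with Btg2 3.47-fold, Fos 1.99-fold and Zfp36 1.57-fold lower. Of all 12587 genes tested, 15.1% were lower and 14.0% higher in this comparison. In IL-4 macrophages 4 genes rose relative to untreated cells, led by Ier3 at 4.23-fold and Zfp36 at 1.62-fold higher, while 1, Btg2, fell, against 12.9% of all genes higher and 12.0% lower. Set directly against each other, IL-27 macrophages had lower levels than IL-4 macrophages for 8 of the 10 genes and higher levels for 0, against 21.0% of all genes lower and 18.8% higher. Without 2 libraries that stood apart from their groups, 2 genes, Jun and Atf3, were also called higher with IL-27 than in untreated cells. These libraries were picked after their spread was seen. Of the 12748 genes that this fit tested, it called 3089 higher and 3224 lower for IL-27 against untreated. The mean was lowest in IL-27 cells for 8 genes, with Jun and Atf3 lowest in untreated cells. It was highest in IL-4 cells for 8 genes, with Ier2 and Btg2 highest in untreated cells.

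The calls were made with edgeR's quasi-likelihood test in 1 fit over all libraries, at a Benjamini-Hochberg adjusted p under 0.05 over the 12587 genes. Over all genes tested, 25.0% were called in either direction for IL-4 against untreated, 29.2% for IL-27 against untreated and 39.8% for IL-27 against IL-4 cells. With IL-27, none of the 10 genes was higher than in untreated or IL-4 cells at an unadjusted p under 0.05 in edgeR or by DESeq2. The median log2 fold change of the 10 genes was 0.24 for IL-4 against untreated, -0.38 for IL-27 against untreated and -0.60 for IL-27 against IL-4 cells. The medians over all genes tested were -0.01, 0.00 and 0.01. Groups that did not overlap were counted as well. For IL-4 against untreated, 7 of the 10 genes were higher and 1 was lower without overlap, where 17.8% and 18.2% of all genes were. For IL-27 against untreated, 1 was higher and 8 were lower, where 26.2% and 26.0% of all genes were. For IL-27 against IL-4, 0 were higher and 9 were lower, where 28.0% and 28.7% of all genes were. All 3 comparisons share groups, so their counts do not stand independently of one another.

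**Figure D1:**
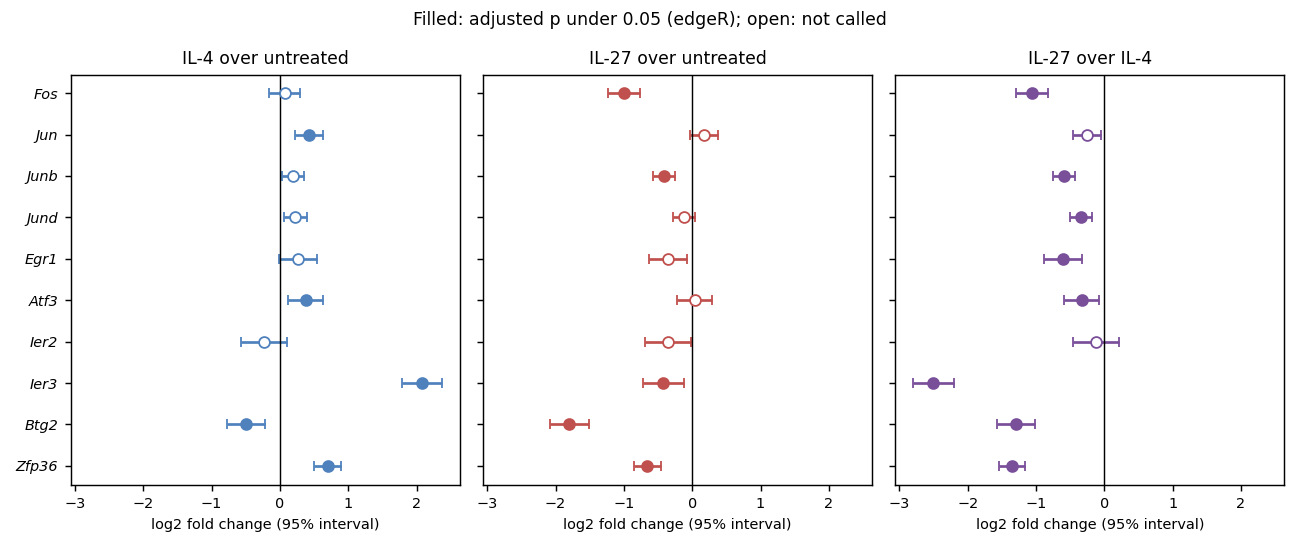
Log2 fold changes of the 10 genes for IL-4 over untreated (left), IL-27 over untreated (middle) and IL-27 over IL-4 (right), with 95% intervals; filled points passed the adjusted p of 0.05. All 10 points of the right panel lie below 0, from Ier3 at -2.50 to Ier2 at -0.12, and the 2 open ones are Jun and Ier2.

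Levels are given as CPM, a gene's count relative to its library total, scaled with TMM factors so that libraries of different depth and composition can be compared. Total counts ran from 34577188 to 37951827 per library, and the lowest raw count of any of the 10 genes was 208, for Ier3 in IL-27 replicate 3. Untreated replicate 2 and IL-4 replicate 1 stood apart. Pairs within a group that included either had a chi-square per gene of 96.3 to 121, against 5.53 to 9.11 for the other pairs. Across 9553 genes, which are not independent replicates, these 2 libraries deviated together from the means of their own groups (r = 0.900). Fits without both libraries are therefore given for the 10 genes where they change a call, and for the other genes named where they change a call against untreated cells. These 2 libraries were picked by their spread in these same data, so leaving them out lowers the spread that the test uses. The adjusted p-values of those fits are therefore likely too small and give no independent support for a call. The 7 defining macrophage markers, Csf1r, Adgre1, Cd68, Itgam, Fcgr1, Mertk and Lyz2, were all present, with a summed level of 24049 to 26107 CPM in IL-27, 14443 to 18044 CPM in IL-4 and 22739 to 31418 CPM in untreated libraries. Most of this sum was Lyz2, with a mean count of 580875 over the 9 libraries, against 77733 for Csf1r, the next. With IL-27, 4 of the 7 fell (Csf1r, Adgre1, Fcgr1 and Mertk) and 0 rose, and with IL-4, 3 fell (Fcgr1, Mertk and Lyz2) and 0 rose. None was higher under either cytokine at an unadjusted p under 0.05 in edgeR. Of 31 listed markers of other cell types, 28 had a row and 10 passed the filter. The summed level of those with a row was 1055 to 1317 CPM in IL-27, 513 to 720 CPM in IL-4 and 689 to 781 CPM in untreated libraries, most of it from the fibroblast collagens Col1a1 and Col1a2, and 5 of the 10 tested were higher and 1 lower in IL-27 than in untreated cells. The neutrophil, T cell and mast cell genes Mpo, Elane, Camp, Cd3e, Cd8a and Cpa3 were at or near 0. Other immune markers of the list passed the filter, among them the neutrophil gene S100a8 with a mean count of 178 over the 9 libraries. The mean counts of Cd79b, Zbtb46, Klrb1c and Cd79a were 56.8, 26.7, 17.4 and 7.22. In these bulk samples, fewer cells of a type and less RNA per cell cannot be told apart, and the part of the fibroblast markers in the results below was not tested.

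**Figure D2:**
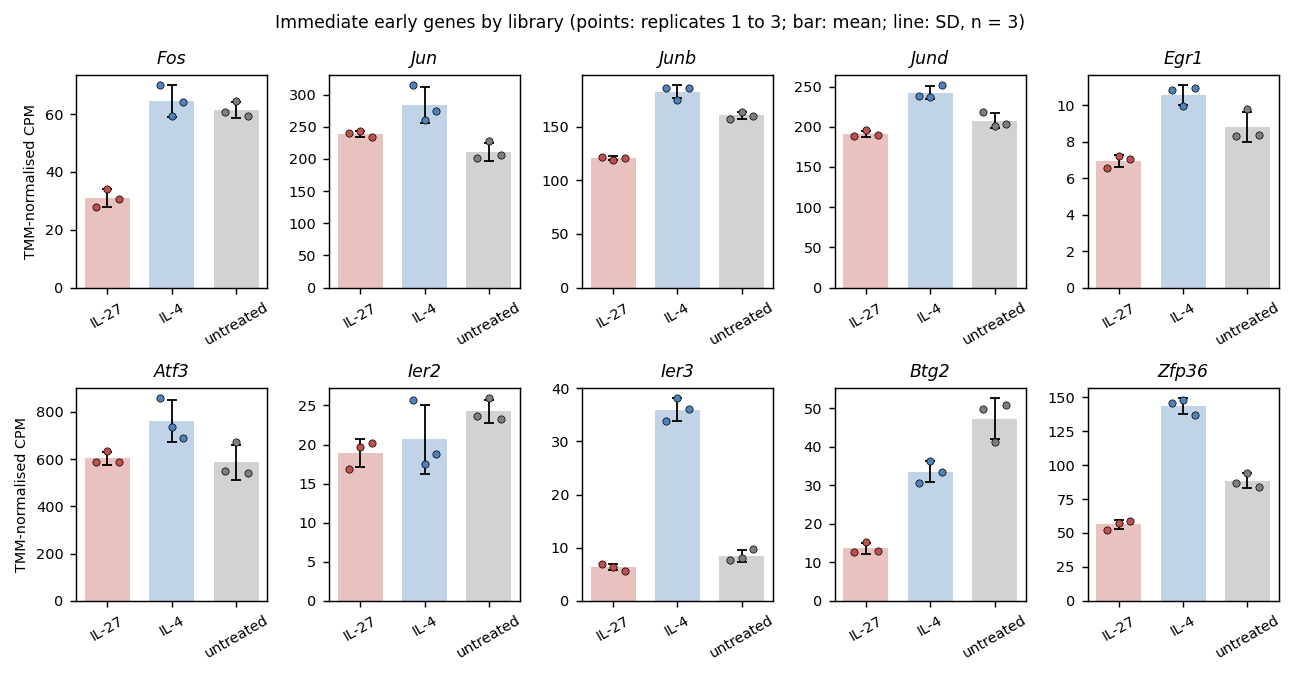
TMM-normalised CPM of the 10 genes by library, in IL-27 (left, red), IL-4 (middle, blue) and untreated (right, grey) macrophages; points are replicates 1 to 3, bars the mean and lines the SD (n = 3). The 3 IL-4 libraries stand far above the rest for Ier3. The 3 IL-27 libraries lie below all others for Fos, Junb, Jund, Egr1, Ier3, Btg2 and Zfp36.

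The promoters of the 4 genes with the largest fold changes, Ier3, Btg2, Zfp36 and Fos, are printed because these genes moved in different ways. Each runs 5′ to 3′ from 250 bases before to 50 bases after the start site of the RefSeq annotation (GRCm38.p6), and capitals mark the motifs found on either strand. In the set of RefSeq promoters used here, matched by symbol, 8 of the 10 genes had an entry.
Ier3 chr17:35821463-35821762 (plus strand): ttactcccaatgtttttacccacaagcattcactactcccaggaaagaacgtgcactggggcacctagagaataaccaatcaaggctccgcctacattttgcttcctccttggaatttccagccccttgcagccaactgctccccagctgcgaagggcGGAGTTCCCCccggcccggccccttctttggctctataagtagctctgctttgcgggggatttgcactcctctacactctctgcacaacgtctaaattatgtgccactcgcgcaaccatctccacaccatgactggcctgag
Zfp36 chr7:28379179-28379478 (minus strand): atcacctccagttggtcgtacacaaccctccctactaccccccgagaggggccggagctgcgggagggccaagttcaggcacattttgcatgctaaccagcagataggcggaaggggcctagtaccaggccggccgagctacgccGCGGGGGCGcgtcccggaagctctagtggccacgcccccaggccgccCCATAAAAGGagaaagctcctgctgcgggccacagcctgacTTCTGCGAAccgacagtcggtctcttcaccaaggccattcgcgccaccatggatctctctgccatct
Btg2 chr1:134079106-134079405 (minus strand): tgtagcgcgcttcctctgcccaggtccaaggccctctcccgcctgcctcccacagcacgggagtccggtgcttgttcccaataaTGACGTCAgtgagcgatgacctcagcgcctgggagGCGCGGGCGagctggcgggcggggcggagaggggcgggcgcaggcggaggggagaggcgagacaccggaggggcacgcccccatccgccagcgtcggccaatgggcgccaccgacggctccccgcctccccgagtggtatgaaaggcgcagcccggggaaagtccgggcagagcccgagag
Fos chr12:85473640-85473939 (plus strand): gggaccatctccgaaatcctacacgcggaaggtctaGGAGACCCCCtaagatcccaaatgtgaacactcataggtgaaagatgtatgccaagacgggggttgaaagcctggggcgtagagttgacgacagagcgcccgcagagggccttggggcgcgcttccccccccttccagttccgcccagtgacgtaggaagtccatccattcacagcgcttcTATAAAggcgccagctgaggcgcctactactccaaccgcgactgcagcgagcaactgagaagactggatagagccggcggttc
The capitals in Ier3 are a 10-base NF-kappa-B motif at -92 to -83 from the start site. In Zfp36 they are an EGR motif (GCGNGGGCG) at -105 to -97, a CArG box, the motif of SRF, at -58 to -49, and a GAS motif (TTCNNNGAA), a pattern that STAT3 dimers bind, at -17 to -9. In Btg2 they are a full CRE (TGACGTCA), the motif of CREB and ATF factors, at -166 to -159, and an EGR motif at -131 to -123. In Fos they are an NF-kappa-B motif at -214 to -205 and a TATA motif (TATAAA) at -33 to -28. None of these matches overlapped another. Among 27025 promoters of the same length, the CArG box was found in 1.57%, the CRE in 1.88%, the EGR motif in 5.55%, the GAS motif in 8.47%, the NF-kappa-B motif in 8.18% and the TATA motif in 14.2%. The wider spacing that STAT6 prefers, TTCNNNNGAA, was in 6.99% of promoters and the AP-1 motif, TGANTCA, in 7.93%. Neither was in the windows of the 8 genes. A match describes the letters in this window and nothing about binding. The lack of a match does not exclude a site beyond the window or a partial form of the motif.

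Among the transcription factors of the AP-1 family, Fos was lower in IL-27 cells while its partners of the Jun family moved less. Fos, which pairs with a Jun protein to form the classical AP-1 dimer, lies at chr12:85473890-85477273 on the plus strand of GRCm38, the build of all coordinates given here. It had 28.0, 34.1 and 30.5 CPM in IL-27 libraries, 70.2, 59.2 and 64.1 CPM in IL-4 libraries and 60.7, 64.5 and 59.3 CPM in untreated libraries. The IL-27 libraries were all below the other 6, and the IL-4 and untreated ranges overlapped. The log2 fold change was -0.99 ± 0.10 (SE) for IL-27 against untreated (adjusted p = 8.76e-05), -1.06 ± 0.11 for IL-27 against IL-4 (adjusted p = 2.86e-05) and 0.07 ± 0.10 for IL-4 against untreated (adjusted p = 0.681). The 95% interval of the last difference was -0.16 to 0.30.

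Jun, the founding partner of FOS and a substrate of JNK, lies at chr4:95049034-95052222 on the minus strand. It had 239, 243 and 233 CPM in IL-27, 315, 261 and 275 CPM in IL-4 and 201, 227 and 206 CPM in untreated libraries. No 2 of the 3 groups overlapped, with IL-27 between the other 2. Jun was 1.34-fold higher in IL-4 than in untreated cells (log2 fold change 0.43 ± 0.09, adjusted p = 0.00776). For IL-27 against untreated the log2 fold change was 0.18 ± 0.09 (adjusted p = 0.182), and without the 2 libraries that stood apart it was 0.23 with an adjusted p of 0.00011. For IL-27 against IL-4 it was -0.25 ± 0.09 (adjusted p = 0.0549), and -0.17 with an adjusted p of 0.00113 without them.

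Junb, a Jun protein that is a weaker activator than JUN on many AP-1 sites, lies at chr8:84974484-84978718 on the minus strand. It had 122, 119 and 121 CPM in IL-27, 187, 176 and 187 CPM in IL-4 and 157, 164 and 161 CPM in untreated libraries. The replicates were tight, and the 3 groups did not overlap. Junb was lower in IL-27 cells than in untreated cells (log2 fold change -0.41 ± 0.07, adjusted p = 0.00198) and than in IL-4 cells (-0.60 ± 0.07, adjusted p = 0.000109). IL-4 against untreated gave 0.19 ± 0.07 (adjusted p = 0.0851), and the same size with an adjusted p of 0.00323 without the 2 libraries. Jund, the Jun protein that most cells hold at a steady level, lies at chr8:70698949-70700616 on the plus strand. It had 189, 195 and 189 CPM in IL-27, 238, 237 and 252 CPM in IL-4 and 218, 201 and 204 CPM in untreated libraries. The groups did not overlap, though IL-27 and untreated libraries came close. Jund was lower in IL-27 than in IL-4 cells (log2 fold change -0.34 ± 0.07, adjusted p = 0.00455). It did not pass for IL-4 against untreated (0.22 ± 0.07, adjusted p = 0.0516) or IL-27 against untreated (-0.12 ± 0.07, adjusted p = 0.257). Without the 2 libraries both passed, at 0.22 (adjusted p = 0.00104) and -0.15 (adjusted p = 0.0103). The SE was then 0.05 for both, while the log2 fold change for IL-4 hardly moved.

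Atf3, a stress-induced ATF factor that restrains cytokine transcription in macrophages, lies at chr1:191170296-191218039 on the minus strand. It had 587, 634 and 588 CPM in IL-27, 858, 737 and 687 CPM in IL-4 and 548, 672 and 540.5 CPM in untreated libraries. IL-27 and untreated libraries overlapped, and the highest library of the IL-4 and of the untreated group was the one that stood apart. Atf3 was higher in IL-4 than in untreated cells (log2 fold change 0.37 ± 0.11, adjusted p = 0.0385) and lower in IL-27 than in IL-4 cells (-0.34 ± 0.11, adjusted p = 0.0411). The IL-4 call was lost in 10 of 18 alternatives, over which the adjusted p ran from 3.12e-07 to 0.131. Leaving out untreated replicate 1 or 3, IL-4 replicate 1 or 2, or any 1 of the IL-27 libraries was enough. The call against IL-4 was lost in 7 of 18, with a range of 3.02e-05 to 0.124. IL-27 against untreated gave 0.04 ± 0.11 (adjusted p = 0.827), and 0.14 with an adjusted p of 0.00969 without the 2 libraries that stood apart.

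Per length, in the deposited FPKM, which divides counts by gene length and library total, Atf3 was the most abundant of the 10 genes, at 299 FPKM in IL-27, 393 FPKM in IL-4 and 294 FPKM in untreated cells. It made up 52.3% ± 0.705 of the summed FPKM of the 10 genes in IL-27, 46.2% ± 2.30 in IL-4 and 46.0% ± 2.52 in untreated cells (SD, n = 3 each). Jun, Junb and Jund followed at 64.5 to 102 FPKM, whereas Fos averaged 14.4 ± 1.30 FPKM in IL-27, 31.3 ± 1.43 FPKM in IL-4 and 29.0 ± 0.936 FPKM in untreated cells. Zfp36 averaged 31.3 FPKM in IL-27, 83.4 FPKM in IL-4 and 49.8 FPKM in untreated cells, and Btg2 averaged 4.34, 11.2 and 15.4 FPKM in the same order. The ratio of Fos to Jun, per length, was 0.177, 0.212 and 0.198 in IL-27, 0.336, 0.343 and 0.353 in IL-4 and 0.458, 0.429 and 0.436 in untreated libraries. The 3 groups did not overlap. IL-4 cells had a lower ratio than untreated cells while their Fos overlapped that of untreated cells and their Jun was higher. An exact two-sided permutation test gave p = 0.1 for each pair of groups, the smallest that 3 against 3 libraries allow. Of the Jun family total, Jun took 36.2% in IL-27, 32.6% in IL-4 and 29.3% in untreated cells, and Junb 31.7%, 36.5% and 38.7% in the same order.

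Egr1, the zinc-finger factor that many stimuli induce through ERK and SRF, averaged 2.22 FPKM in IL-27, 3.53 FPKM in IL-4 and 2.85 FPKM in untreated cells, the least of the 10 genes. It had 6.55, 7.20 and 7.06 CPM in IL-27, 10.8, 9.94 and 11.0 CPM in IL-4 and 8.31, 9.79 and 8.40 CPM in untreated libraries. The 3 groups were ordered with IL-27 lowest and did not overlap. Egr1 was lower in IL-27 than in IL-4 cells (log2 fold change -0.61 ± 0.12, adjusted p = 0.00336). Neither cytokine differed from untreated cells past the threshold, at -0.35 ± 0.13 for IL-27 (adjusted p = 0.0609) and 0.26 ± 0.12 for IL-4 (adjusted p = 0.160). For IL-27 against untreated, Egr1 was called lower in edgeR with upper-quartile factors (adjusted p = 0.0464) and with no factors (adjusted p = 0.0395). It was also called by DESeq2 (adjusted p = 0.0460). The other 15 of 18 alternatives did not call it, with adjusted p up to 0.178.

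Ier3 showed the largest change of the 10 genes. Its product is a small protein that acts on cell survival and on ERK signalling, and the gene lies at chr17:35821684-35822923 on the plus strand. It had 6.90, 6.46 and 5.69 CPM in IL-27, 33.8, 38.1 and 36.1 CPM in IL-4 and 7.67, 8.04 and 9.79 CPM in untreated libraries. The 3 IL-4 libraries stood far above the other 6, and IL-27 libraries were all below the untreated ones. The log2 fold change was 2.08 ± 0.13 for IL-4 against untreated (adjusted p = 4.75e-06) and -2.50 ± 0.13 for IL-27 against IL-4 (adjusted p = 4.85e-07), a 5.67-fold difference. For IL-27 against untreated it was -0.42 ± 0.13 (adjusted p = 0.0369), a call lost in 8 of 18 alternatives with adjusted p from 0.00343 to 0.127. Leaving out untreated replicate 3, IL-4 replicate 3 or any 1 of the IL-27 libraries was enough. Among all tested genes, Ier3 stood at the 49.3rd percentile of FPKM in IL-27 cells, the 84.9th in IL-4 cells and the 55.6th in untreated cells.

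Ier2, which encodes a small nuclear protein, lies at chr8:84661331-84662852 on the minus strand. Of the 10 genes, it alone passed in none of the 3 comparisons. It had 16.9, 19.7 and 20.2 CPM in IL-27, 25.6, 17.5 and 18.9 CPM in IL-4 and 23.6, 26.0 and 23.3 CPM in untreated libraries. One IL-4 library, replicate 1, was among the untreated values while the other 2 were with the IL-27 values. The log2 fold change was -0.36 ± 0.15 for IL-27 against untreated (adjusted p = 0.102), -0.23 ± 0.15 for IL-4 against untreated (adjusted p = 0.296) and -0.12 ± 0.15 for IL-27 against IL-4 (adjusted p = 0.544). Without the 2 libraries that stood apart, Ier2 was lower than in untreated cells under both cytokines, at -0.31 for IL-27 (adjusted p = 0.00975) and -0.36 for IL-4 (adjusted p = 0.00703).

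Btg2 fell with both cytokines. BTG2 binds the CCR4-NOT deadenylase and slows cell division, and the gene lies at chr1:134075170-134079120 on the minus strand. It had 12.6, 15.3 and 13.0 CPM in IL-27, 30.7, 36.2 and 33.6 CPM in IL-4 and 49.9, 41.2 and 51.0 CPM in untreated libraries. The 3 groups did not overlap, with IL-27 at the bottom and untreated at the top. The log2 fold change was -1.80 ± 0.13 for IL-27 against untreated (adjusted p = 7.28e-06), -0.50 ± 0.12 for IL-4 against untreated (adjusted p = 0.0141) and -1.30 ± 0.13 for IL-27 against IL-4 (adjusted p = 2.44e-05). The IL-4 call was lost without untreated replicate 1 (adjusted p = 0.0552) or untreated replicate 3 (adjusted p = 0.0569) and with no scaling factors (adjusted p = 0.0544), and the adjusted p was as low as 3.68e-05 elsewhere. Among Btg1, Btg2, Btg3, Tob1 and Tob2, Btg2 held 6.68% ± 0.838 of the summed FPKM in IL-27, 19.9% ± 0.634 in IL-4 and 18.6% ± 0.350 in untreated cells (SD, n = 3 each).

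Zfp36, which encodes tristetraprolin, moved in opposite directions under the 2 cytokines. The protein binds AU-rich elements in 3′ ends and brings in CCR4-NOT, and the gene lies at chr7:28376784-28380253 on the minus strand. It had 52.1, 57.6 and 59.0 CPM in IL-27, 146, 148 and 137 CPM in IL-4 and 87.1, 94.5 and 84.1 CPM in untreated libraries. No groups overlapped. The log2 fold change was -0.66 ± 0.09 for IL-27 against untreated (adjusted p = 0.000387), 0.70 ± 0.09 for IL-4 against untreated (adjusted p = 0.000318) and -1.35 ± 0.09 for IL-27 against IL-4 (adjusted p = 1.65e-06). Its relatives had other patterns. Zfp36l1 averaged 21.0 ± 2.90 CPM in IL-27, 77.6 ± 1.37 CPM in IL-4 and 79.1 ± 0.866 CPM in untreated cells, and it fell by 1.92 on the log2 scale with IL-27 (adjusted p = 1.97e-06). Zfp36l2 averaged 513 CPM in IL-27, 379 CPM in IL-4 and 521 CPM in untreated cells, and it fell by 0.46 with IL-4 (adjusted p = 0.00253). Zfp36 held 17.3% ± 0.592 of the family's FPKM in IL-27, 37.9% ± 1.67 in IL-4 and 22.4% ± 1.84 in untreated cells (SD, n = 3 each).

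The 10 genes and their mRNAs were set beside the tested genes. They were chosen as immediate early genes, a class in which many mRNAs carry AU-rich elements. The values below therefore only describe the list. In GENCODE M21 (GRCm38), with the transcript nearest in length to the deposited one, the 10 genes spanned a median of 3427 bases with 1.5 exons, against 24523 bases and 9 exons over the tested genes with an entry (97.2% of them). The match in length was loose for Zfp36, whose transcript used here had 1 exon and 2465 bases, against 1765 deposited. The median of 1.5 exons depends on such choices. Atf3, at 47744 bases, was the exception. The pentamer ATTTA, the core of an AU-rich element, was in the 3′ untranslated region of 9 of the 10 genes, against 68.2% of tested genes, and at least 3 copies were in 6 of 10, against 36.4%. Ier2 had none, and Ier3 had 5 in 613 bases, or 8.16 per kilobase. The nonamer TTATTTATT, the preferred site of tristetraprolin, was in 7.66% of tested genes and in 2 of the 10, Fos and Zfp36 itself. Both sites are printed with the nonamer in capitals, as the letters by which these mRNAs carry the kind of element that the Zfp36 product binds.
Fos chr12:85477103-85477132 (plus strand): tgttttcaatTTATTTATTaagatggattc
Zfp36 chr7:28376950-28376979 (minus strand): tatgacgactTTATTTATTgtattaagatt
Fos was lower in IL-27 cells, where Zfp36 was also lower, and did not pass in IL-4 cells, where Zfp36 was higher. No RNA half-life was measured, and any part of tristetraprolin in the level of Fos was not tested. Several of the genes overlap a gene on the other strand, and the sources used here do not give the strand used in counting. In this annotation 919 bases of the Jund transcript, 689 of Jun and 276 of Zfp36 lie within the span of an antisense gene that was not tested. If counting ignored the strand, reads of the partners there could not be told apart. The Junb gene overlaps Prdx2, a peroxidase gene, on the other strand, though 0 bases of the Junb transcript used here lie in it. Prdx2 was lower in IL-27 than in untreated cells as well (-0.48, adjusted p = 0.00144).

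The spread between replicates differed among the 10 genes. Ier2 had the largest deviation of any library, 0.33 on the log2 scale in IL-4 replicate 1, and Junb none over 0.06. Untreated replicate 2 was the highest of its group for 7 of the 10 genes, and IL-27 replicate 2 for 6. For Atf3 the 2 libraries that stood apart were 0.20 (untreated replicate 2) and 0.18 (IL-4 replicate 1) above their group means. Without both libraries the fit called 6 of the 10 genes higher and 2 lower for IL-4 against untreated, 2 higher and 7 lower for IL-27 against untreated, and 0 higher and 9 lower for IL-27 against IL-4. Of the 12748 genes tested in that fit, 3061 were higher and 2848 lower, 3089 and 3224, and 3560 and 3866 in the same order.

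**Figure D3:**
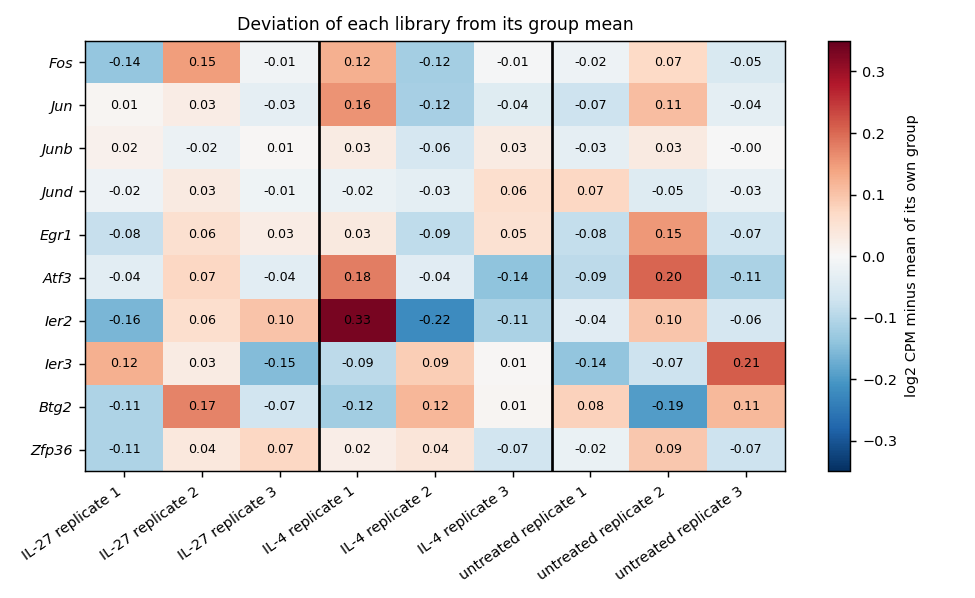
Deviation of each library from the mean of its own group, in log2 CPM, for the 10 genes (rows) and 9 libraries (columns, in the order IL-27, IL-4, untreated); red is above and blue below the group mean. IL-4 replicate 1 is 0.33 above its group for Ier2, and untreated replicate 2 is 0.20 above its group for Atf3 and 0.19 below it for Btg2.

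Likeness of profiles was measured as the root mean square difference between log2 CPM profiles over the 9 libraries, each centred on its own mean, and it is a description that shares libraries and depth. The closest pair among the 10 genes was Junb and Egr1 at 0.0737, followed by Jun and Atf3 at 0.0835. The farthest pair was Ier2 and Ier3 at 1.14. Among 9412 other genes, the nearest to Fos was Sfxn2 at 0.103, to Jun Clint1 at 0.0412, to Junb Glg1 at 0.0494, to Jund Snrnp70 at 0.0364 and to Egr1 Agfg2 at 0.0545. Atf3 was nearest to Kars at 0.0328, Ier3 to Pcyox1l at 0.194, Btg2 to Pdcd4 at 0.115 and Zfp36 to Ncapd3 at 0.0626. Ier3 also had the widest range of the 10 genes over the 9 libraries, 2.73 on the log2 scale.

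Other genes of the pathway were called in both directions, and the counts of each list stand against 29.2% of all genes called with IL-27 and 25.0% with IL-4. Counts without the 2 libraries that stood apart stand against more calls over all 12748 genes tested in that fit. It called 3089 higher and 3224 lower with IL-27, and 3061 and 2848 with IL-4. Of 15 other tested AP-1 and ATF factors, 9 were higher and 2 lower in IL-27 than in untreated cells, and 5 were higher and 0 lower in IL-4 than in untreated cells. With IL-4, 2 were lower at an unadjusted p under 0.05 in edgeR and 1 by DESeq2. The 5 that rose with IL-4 were Fosl2, Batf3, Jdp2, Creb5 and Maff, and the 2 that fell with IL-27 were Fosl2 and Batf3. The count of 5 became 3 on leaving out any 1 library other than untreated replicate 3 or IL-4 replicate 2. The genes called against untreated cells were 73.3% of the list with IL-27 and 33.3% with IL-4. In IL-27 against IL-4 cells 8 were higher and 2 lower, where 8 of the 10 genes above were lower. Their median log2 fold change was 0.67 for IL-27 against untreated and 0.06 for IL-4 against untreated cells. Fosb, in the same family as Fos, had too few counts to test.

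Fosl2, a FOS relative without its strong activation domain, averaged 42.6 ± 2.52 CPM in IL-27, 151 ± 11.2 CPM in IL-4 and 57.1 ± 3.04 CPM in untreated cells. It rose with IL-4 (log2 fold change 1.41, adjusted p = 6.40e-06) and fell with IL-27 (-0.42, adjusted p = 0.00683), as Zfp36 did. Of the summed FPKM of Fos, Fosb, Fosl1 and Fosl2, Fosl2 held 26.5% ± 2.45 in IL-27, 40.5% ± 1.29 in IL-4 and 21.1% ± 1.53 in untreated cells (SD, n = 3 each). Batf3, a dimer partner of Jun proteins in dendritic and T cells, averaged 1.58 CPM in IL-27, 33.1 CPM in IL-4 and 5.08 CPM in untreated cells (2.70 for IL-4, adjusted p = 1.22e-05, and -1.68 for IL-27, adjusted p = 0.000277). Maff, a small MAF protein, and Jdp2, a repressor that pairs with JUN, were highest in IL-27 cells. Their calls for IL-4, 0.46 for Maff (adjusted p = 0.0475) and 0.52 for Jdp2 (adjusted p = 0.0433), held in 6 and 8 of 18 alternatives, with adjusted p up to 0.144 and 0.141. Maff averaged 26.4 CPM in IL-27, 8.18 CPM in IL-4 and 5.96 CPM in untreated cells, with a log2 fold change of 2.15 for IL-27 (adjusted p = 6.83e-06). Jdp2 averaged 33.0 CPM in IL-27, 12.8 CPM in IL-4 and 8.91 CPM in untreated cells, with 1.89 for IL-27 (adjusted p = 2.72e-05).

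Of 10 tested EGR factors, corepressors, SRF and its cofactors, 1 was higher and 0 lower in IL-27 than in untreated cells, and 2 were higher and 2 lower in IL-4 than in untreated cells. The share called, 10.0% with IL-27, was below that of all genes, and with IL-4 it was 40.0%. For IL-27 none was lower at an unadjusted p under 0.05 in edgeR or by DESeq2. Egr2, the relative of Egr1 that is known as an IL-4 target in macrophages, averaged 202.5 ± 10.3 CPM in IL-27, 360.4 ± 47.7 CPM in IL-4 and 180 ± 20.6 CPM in untreated cells, and it rose with IL-4 (1.01, adjusted p = 0.000211). Mrtfb, a cofactor of SRF, rose with both cytokines, by 0.51 with IL-4 (adjusted p = 0.00339) and by 0.39 with IL-27 (adjusted p = 0.0116). The ETS factors Elk3 (-0.28, adjusted p = 0.0333) and Elk4 (-0.36, adjusted p = 0.0497) fell with IL-4, calls lost in 11 and 12 of 18 alternatives, so that the count of 2 became 0 or 1 on leaving out any 1 library other than untreated replicate 2. The count that rose with IL-27 was 2 without IL-4 replicate 1 and 0 without IL-27 replicate 3. Without both libraries that stood apart, 5 fell with IL-4, and 3 rose and 1 fell with IL-27. The genes that rose with IL-27 then included Egr2 (0.26, adjusted p = 6.63e-05) and Elk3 (0.21, adjusted p = 0.00940). SRF itself was not called under either cytokine (Srf, 0.23 with IL-4, adjusted p = 0.375, and -0.06 with IL-27, adjusted p = 0.812).

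Of 31 other immediate early genes, Maff among them, 13 rose and 7 fell with IL-27, and 11 rose and 6 fell with IL-4, 64.5% and 54.8% of the list. The count of 7 was 4 without IL-27 replicate 2 and 3 without IL-27 replicate 3, and the count of 6 was 10 without the 2 libraries that stood apart. Klf4, a zinc-finger factor of alternative activation, averaged 22.9 ± 3.86 CPM in IL-27, 50.6 ± 1.77 CPM in IL-4 and 8.15 ± 0.584 CPM in untreated cells, and it rose with both (2.63 for IL-4, adjusted p = 1.16e-06). Sgk1, a serum-induced kinase, averaged 1025 CPM in IL-27, 322 CPM in IL-4 and 310 CPM in untreated cells and rose with IL-27 (1.73, adjusted p = 1.94e-05), with 0.05 for IL-4 (adjusted p = 0.823). Plk3, a stress-linked kinase, averaged 17.0 CPM in IL-27, 37.5 CPM in IL-4 and 14.7 CPM in untreated cells and rose with IL-4 (1.35, adjusted p = 2.43e-05). With IL-27 it was not called (0.21, adjusted p = 0.187), and without the 2 libraries that stood apart it was (0.28, adjusted p = 0.0209).

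**Figure D4:**
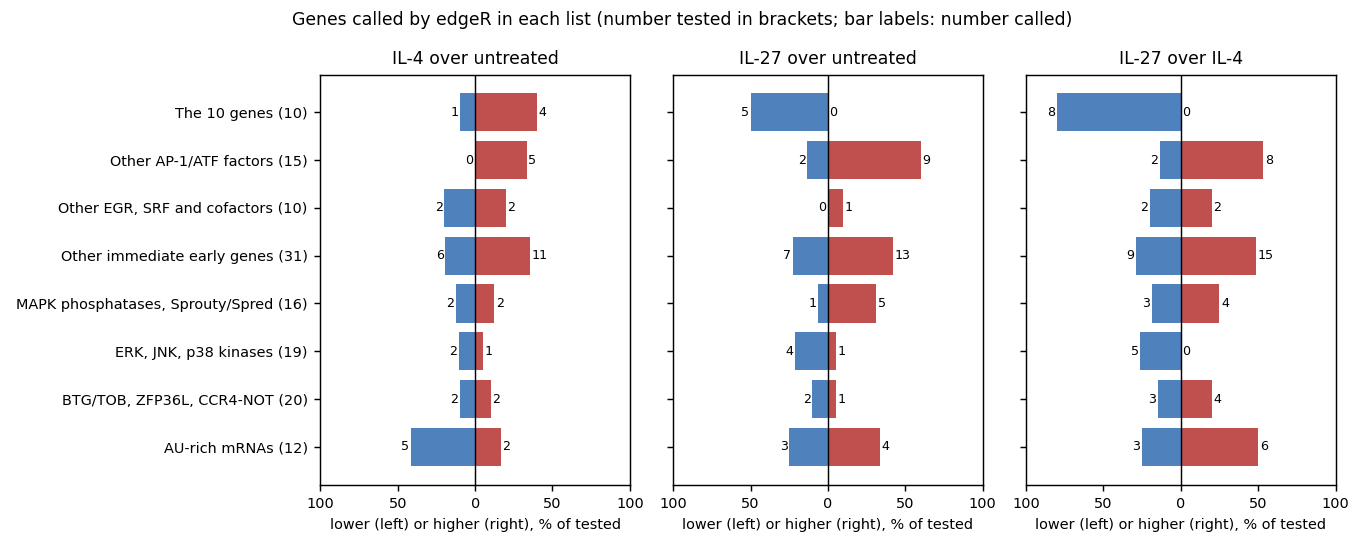
Percent of tested genes called lower (left of 0, blue) and higher (right of 0, red) in each gene list for IL-4 over untreated, IL-27 over untreated and IL-27 over IL-4; bar labels are the number called. In the right panel 8 of the 10 genes are lower and 0 higher, whereas the other AP-1 and ATF factors have 2 lower and 8 higher.

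Among the kinases and phosphatases upstream, the share of genes called was mostly near or below that of all genes. Of 16 MAP kinase phosphatases and Sprouty or Spred inhibitors, 5 rose and 1 fell with IL-27, and 2 rose and 2 fell with IL-4, 37.5% and 25.0% of the list. With IL-27 Dusp2, Dusp4, Dusp8, Dusp16 and Spred2 rose and Dusp7 fell, and with IL-4 Dusp2 and Dusp4 rose and Dusp8 and Dusp16 fell. The IL-4 call of Dusp8 (-0.84, adjusted p = 0.0250) held in 11 of 18 alternatives. It was lost without the 2 libraries that stood apart (-0.73, adjusted p = 0.0620) and without untreated replicate 1 or 3 or IL-4 replicate 1 or 2. The count that fell with IL-4 was 1 without untreated replicate 1 or 3, and 3 without IL-4 replicate 3 or without the 2 libraries. Without the 2 libraries that stood apart, 4 rose with IL-4 and 3 fell with IL-27. Dusp4, a nuclear ERK phosphatase, averaged 57.7 CPM in IL-27, 145 CPM in IL-4 and 32.6 CPM in untreated cells, with 2.15 for IL-4 (adjusted p = 8.23e-06). Dusp1, the p38 and JNK phosphatase that is itself an immediate early gene, averaged 40.4 CPM in IL-27, 48.7 CPM in IL-4 and 48.5 CPM in untreated cells and was called in no comparison. Of 19 ERK, JNK and p38 kinases, 1 rose and 4 fell with IL-27, and 1 rose and 2 fell with IL-4, 26.3% and 15.8% of the list. Those that fell with IL-27 were Mapk14, Map2k6, Rps6ka1 and Rps6ka5, and those that fell with IL-4 were Mapk14 and Mapkapk2. The count of 2 became 1 on leaving out any 1 library other than IL-4 replicate 1, and the count of 4 was 6 without IL-4 replicate 1. The single genes that rose, Mapk9 with IL-27 (0.34, adjusted p = 0.0249) and Map2k3 with IL-4 (0.49, adjusted p = 0.0497), were not called on leaving out any 1 of the IL-27 libraries or untreated replicate 3. Mapk9 was also lost without untreated replicate 2, and Map2k3 without untreated replicate 1 or IL-4 replicate 3. The count that rose with IL-4 was 2 without untreated replicate 2 and 3 without IL-4 replicate 1. Without the 2 libraries that stood apart these counts were 4 and 7 with IL-27, and 6 and 3 with IL-4. Mapk14, the main p38 kinase, averaged 72.4 CPM in IL-27, 126 CPM in IL-4 and 155 CPM in untreated cells (-1.09 for IL-27, adjusted p = 2.40e-05, and -0.29 for IL-4, adjusted p = 0.0470). The IL-4 call of Mapk14 held in 7 of 18 alternatives, with adjusted p up to 0.149, and was lost on leaving out any 1 library other than IL-4 replicate 1. Map2k6, which phosphorylates p38, averaged 0.904 CPM in IL-27, 5.91 CPM in IL-4 and 3.93 CPM in untreated cells (-2.12 for IL-27, adjusted p = 0.000123). Rps6ka1, an ERK-activated kinase, fell by 1.04 with IL-27 (adjusted p = 0.000474). With IL-4 it had -0.14 (adjusted p = 0.530), and -0.16 with an adjusted p of 0.0208 without the 2 libraries that stood apart. Rps6ka5, a kinase of histone H3 and CREB that ERK and p38 activate, averaged 3.82 CPM in IL-27, 9.55 CPM in IL-4 and 10.2 CPM in untreated cells (-1.42 for IL-27, adjusted p = 0.00407).

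Beside Btg2 and Zfp36, 20 genes of the BTG and TOB family, ZFP36 relatives and the CCR4-NOT deadenylase were tested. With IL-27 1 rose and 2 fell, and with IL-4 2 rose and 2 fell, 15.0% and 20.0% of the list, both below the share of all genes. The 2 that fell with IL-27 were Zfp36l1 and Tob1, and Btg3 rose. Tob1 (-0.50, adjusted p = 0.0469) was lost on leaving out untreated replicate 3, IL-4 replicate 2 or any 1 of the IL-27 libraries. The 2 that rose with IL-4 were Hnrnpd, an AU-rich element binding protein (0.55, adjusted p = 0.00231), and Cnot9, a subunit of CCR4-NOT (0.47, adjusted p = 0.00360). Cnot9 had 0.23 with IL-27 (adjusted p = 0.0721), and 0.22 with an adjusted p of 0.00539 without the 2 libraries that stood apart. The 2 that fell were Zfp36l2 and Btg1, an anti-proliferative relative of Btg2 (-0.83, adjusted p = 0.00588). Without IL-4 replicate 1 the count that rose with IL-27 was 4. Without the 2 libraries that stood apart the counts were 4 and 5 with IL-27, and 5 and 5 with IL-4. Of 12 tested AU-rich mRNAs described as bound by tristetraprolin, a list that includes Ier3 and shares Pim1 and Dusp1 with those above, 4 rose and 3 fell with IL-27, and 2 rose and 5 fell with IL-4, 58.3% of the list under each. With IL-27 Tnf, Vegfa, Ptgs2 and Pim1 rose and Il1b, Ccl4 and Ier3 fell, and with IL-4 Ccl2 and Ier3 rose and Tnf, Il1b, Cxcl2, Ccl3 and Vegfa fell. The count of 3 became 1 without untreated replicate 3 or without IL-27 replicate 3. Vegfa, the vascular growth factor, averaged 149 ± 11.1 CPM in IL-27, 26.7 ± 2.22 CPM in IL-4 and 81.8 ± 2.58 CPM in untreated cells, the reverse of the order of Zfp36. Tnf, the best known target, averaged 20.2 CPM in IL-27, 7.07 CPM in IL-4 and 12.7 CPM in untreated cells (0.67 for IL-27, adjusted p = 0.00159, and -0.85 for IL-4, adjusted p = 0.000528). Ccl3, a chemokine, fell by 1.18 with IL-4 (adjusted p = 0.000103) and had -0.13 with IL-27 (adjusted p = 0.437). Il1b, the inflammatory cytokine, averaged 0.00912 CPM in IL-27, 0.143 CPM in IL-4 and 2.49 CPM in untreated cells.

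Heat shock genes, which like immediate early genes respond to stress, had summed levels of 1129 to 1161 CPM in IL-27, 1740 to 1800 CPM in IL-4 and 1434 to 1560 CPM in untreated libraries. Of 10 tested, 3 rose and 2 fell with IL-27, and 3 rose and 0 fell with IL-4, 50% and 30% of the list, the IL-4 share being near that of all genes. For the last count none was lower at an unadjusted p under 0.05 in edgeR or by DESeq2. Those that rose were Hspb1, Hspe1 and Hspd1 with IL-27, and Hsph1, Hspe1 and Hspd1 with IL-4, and those that fell with IL-27 were Hspa8 and Hspa1b. Without IL-27 replicate 2 or without IL-27 replicate 3, 1 fell, and without the 2 libraries that stood apart 5 rose with IL-4. The inducible Hspa1a was not called in any comparison. Hspa8, the constitutive chaperone, averaged 473 CPM in IL-27, 1106 CPM in IL-4 and 984 CPM in untreated cells and was the largest term of the sum. With IL-4 it had 0.17 (adjusted p = 0.259), and 0.21 with an adjusted p of 0.000543 without the 2 libraries that stood apart. The part of these genes in the results above was not tested.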

How the data were processed

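Per the labels' protocols, RNA of the macrophages was extracted with TRIzol, and the VAHTS Universal V6 kit turned polyA RNA into libraries. The authors deposited raw counts, as whole numbers, for each gene in each of 9 libraries. The submitters' processing notes name fastp, HISAT2, HTSeq and GRCm39, with no versions. The annotation, the strand used in counting and the handling of shared reads: not given in the sources used here. FPKM values were also deposited by the authors. Each equals the count scaled by library total and by a gene length that came out whole (within 1e-06 bases) for 100% of genes.

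Counts were tested in R 4.3.3 with edgeR 4.0.16 (glmQLFit and glmQLFTest, TMM factors from 0.918 to 1.065). All 9 libraries entered 1 fit with a term for group, after filterByExpr with a minimum count of 10. P-values were adjusted by Benjamini-Hochberg over 12587 genes within each of the 3 comparisons, and an adjusted p under 0.05 was called. Standard errors, which are approximate, were taken as the absolute log2 fold change divided by the root of F. The fitting code was tested on simulated data. DESeq2 1.42.0, other scaling factors and filters, 2 groups only, a replicate term and left-out libraries were the alternatives. The 10 genes and the other lists were chosen with earlier results of these data known, so neither is independent support for a direction. All 10 genes are named. From each other list, up to 4 genes with the smallest adjusted p over the comparisons with untreated cells are named, besides those that account for a small count. Of the kinase list, 1 gene is not reported here and was left out of its counts. Dusp1, Srf, Hspa1a, Fosb and Prdx2 were named after their values were seen. The nearest profile was sought among genes with a mean of at least 5 CPM. Transcript features were computed from GENCODE M21 (GRCm38) and promoters are those of RefSeq (GRCm38.p6), matched by symbol. No coordinate of the deposited files was used.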

Additional observations from a re-analysis of the deposited data

How the results depend on the processing

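Of the 10 genes, none changed direction under other scaling factors, filters, DESeq2, the 2 groups alone or a replicate term. Leaving out libraries turned 2 values that were not called: Atf3 for IL-27 against untreated (-0.018 to 0.14) and Ier2 for IL-27 against IL-4 (-0.23 to 0.058, and 0.052 without untreated replicate 2 and IL-4 replicate 1). Other values not called that turned were Zfp36l1 for IL-4 with no factors (0.013) and, with 1 library left out, Sgk1 (-0.073 to 0.18) and Rps6ka5 (-0.34 to 0.078) for IL-4 and, for IL-27 against untreated, Elk4 (-0.11 to 0.056) and Zfp36l2 (-0.071 to 0.011). The count of the 10 genes lower with IL-4 was 0 with no factors, where it is Btg2 that was lost, and 0 to 2 with 1 library left out. Without untreated replicate 2 and IL-4 replicate 1 it was 2, and 2 of the 10 were higher with IL-27 than in untreated cells. Over all genes, IL-4 against untreated gave 1630 higher and 1515 lower, and 984 lower with only those 2 groups fitted. Without those 2 libraries it gave 3061 higher and 2848 lower, IL-27 against untreated gave 3089 higher and 3224 lower (1766 and 1904 with all libraries), and IL-27 against IL-4 gave 3560 higher (2366 with all). With 1 library left out, the fewest genes called were 1214 higher and 1066 lower for IL-4 against untreated, 1241 and 1335 for IL-27 against untreated, and 1869 and 1961 for IL-27 against IL-4. The cause of these shifts was not tested.

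Replicate numbers are shared between groups, but the labels do not say that a number marks a shared mouse or batch. Deviations of same-numbered libraries had correlations across genes from -0.797 to 0.666. Untreated replicate 2 and IL-4 replicate 1, which carry different numbers, deviated together (r = 0.900) and weigh on these values. The correlations therefore cannot decide whether the numbers pair the libraries. With the replicate block, IL-4 against untreated gave 1207 genes higher and 1101 lower, with 3 and 1 of the 10. IL-27 against untreated gave 1399 and 1500, with 0 and 4 of the 10, and IL-27 against IL-4 gave 2034 and 2182, with 0 and 7 of the 10. DESeq2 called 6 higher and 1 lower, 0 and 6, and 0 and 9 of the 10 in the same comparisons. Over all genes it called 1900 higher and 1815 lower, 2051 and 2237, and 2611 and 2867. Depth left Fosb, with a mean count of 6.56, untested.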
